A study of Mus musculus with 12 samples.

Results

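The 49 genes described here encode the glycoproteins, proteoglycans and laminins of the extracellular matrix, that is, matrix proteins other than collagens and proteases. They were taken by gene symbol from a list and not by a cut on their measured values. Earlier results of these data were known when the list was chosen. The list holds 7 small leucine-rich proteoglycans, 2 large proteoglycans, 6 proteins of elastic fibres and microfibrils, 5 fibulins, 4 latent TGF-beta binding proteins and 10 laminin chains and nidogens. It is completed by 12 matricellular and cell-binding proteins and 3 other matrix-associated proteins. Of the 49, 48 were among the 16703 genes measured in whole liver and 49 were among the 16273 genes measured in liver sinusoidal endothelial cells (LSEC). The microfibril gene Mfap5 was measured in LSEC and not in whole liver. Together the measurements covered 17188 genes.

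RNA-seq libraries came from C57BL/6 mice in 4 groups of 3: NASH whole liver, chow whole liver, NASH LSEC and chow LSEC. NASH is nonalcoholic steatohepatitis, a fatty liver disease with inflammation and scarring, brought on here by a diet. The labels attach 36 weeks of that diet to every sample, chow included, and tell the groups apart by the phenotype NASH or chow. They name no other allele or agent. LSEC form the wall of the liver's capillaries, and were purified by first depleting CD11b-positive non-parenchymal cells and then binding the remaining CD146-positive cells to magnetic beads. The labels do not say that libraries of a group came from separate animals, so p-values measure the spread between these libraries, which may be technical. The words NASH livers and chow livers below stand for the whole-liver libraries of those groups. LSEC libraries are named by their place in the table (the first, the second, the third), which is only a name.

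The extracellular matrix is a mesh of collagen and elastic fibres in which proteoglycans and glycoproteins set fibre thickness, bind growth factors and give cells places to attach. Basement membranes are its sheet-like form, built from laminin trimers linked to a collagen network through nidogens and perlecan. Healthy sinusoids have little organised basement membrane, and in liver scarring matrix is laid down along them, chiefly by activated stellate cells and portal fibroblasts. Matricellular proteins such as thrombospondins, tenascins and periostin add little strength to the mesh but change how cells respond to it. Latent TGF-beta binding proteins store the scar-promoting growth factor TGF-beta in microfibrils.

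Values are normalized reads, the authors' read counts divided by a factor for each library. Liver libraries held 47000197 to 57397720 reads and LSEC libraries 18527017 to 19402863. Fold changes are differences of log2(normalized reads + 1), NASH over chow, which understate the change of genes with few reads, and a gene was called at an adjusted p under 0.05 in limma. In LSEC the sinusoidal endothelial markers summed to 383618 to 406828 normalized reads in NASH and 706471 to 723793 in chow, and none of the 12 was at 0 in every library. The hepatocyte markers summed to 36831 to 72832 in NASH LSEC and 7175 to 81233 in chow LSEC, with the second chow library highest.

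In NASH liver nearly the whole group was higher than in chow liver. Of 48 genes 42 rose, 4 fell (Lama3, Lamb3, Ecm1 and Vtn) and 2 did not pass the test (Ogn and Aspn). Over all liver genes 25% were called higher and 21% lower, 46% in all. The median log2 fold change of the 48 genes was 1.61, against 0.02 over all liver genes. All NASH libraries lay above all chow libraries for 42 genes and below them for 4, where the shares over all genes were 29.8% and 27.3%. These libraries are bulk RNA, in which a change in the number of cells of a type and a change in RNA per cell cannot be told apart. The log2 fold changes ran up to 3.75 for the hyaluronan-binding proteoglycan Vcan and down to -1.76 for the laminin chain Lamb3.

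In NASH LSEC, 15 of 49 genes rose, 1 fell (Lama3) and 33 did not pass the test, while 5.24% of all LSEC genes were called higher and 2.86% lower, 8.11% in all. The median was 0.84, against 0.00 over all LSEC genes. All NASH libraries lay above all chow libraries for 22 genes (16.5% over all genes) and below them for 6 (15.4%). The 15 genes that rose were Vcan, Fbn1, Mfap2, Fbln2, Fbln5, Ltbp2, Ltbp3, Lama2, Lamb3, Lamc1, Nid2, Thbs1, Postn, Tnc and Fstl1. Leaving out 1 library ended some of these calls, and the count of rises was 5 without the third NASH library and 8 without the third chow library. The calls of Ltbp2, Tnc, Thbs1 and Fstl1 held under each of the alternatives tried.

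**Figure D1:**
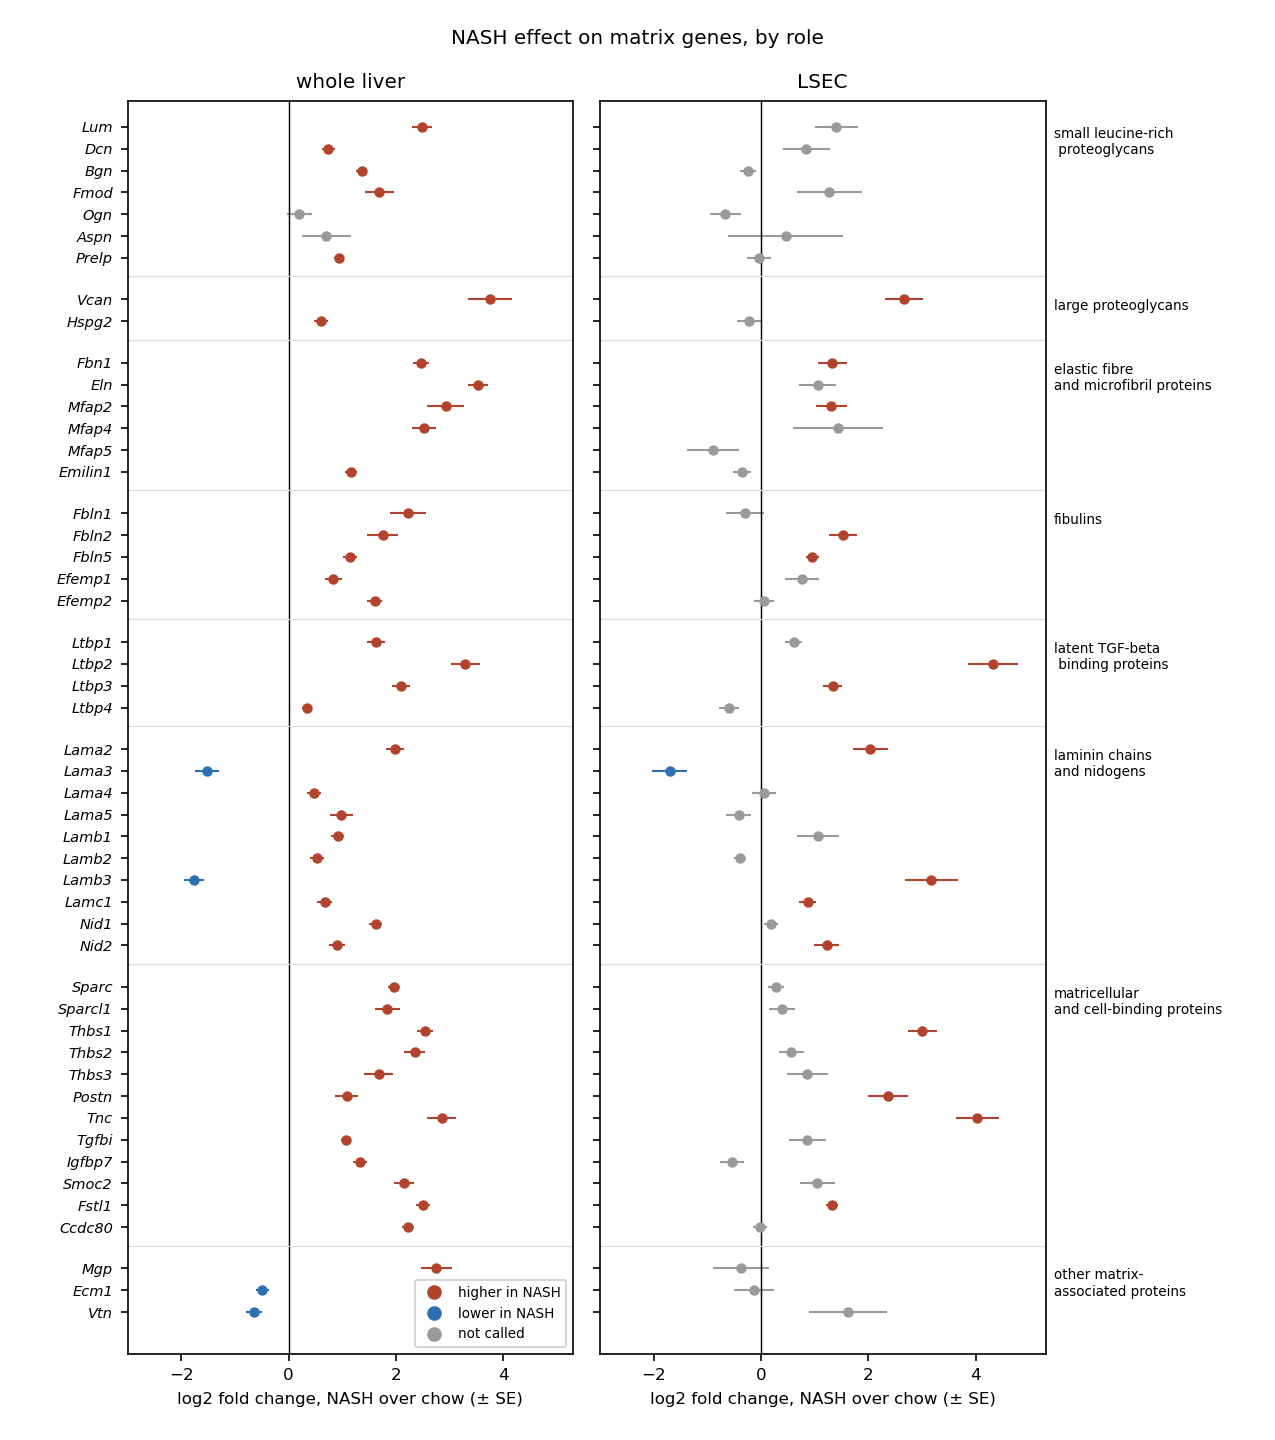
Log2 fold change of NASH over chow (x axis, log2 of normalized reads + 1; points are limma estimates and bars are ± SE, n = 3 libraries per group) for each matrix gene, grouped by role, in whole liver (left) and LSEC (right). In liver 42 genes were called higher (red) and 4 lower (blue), while in LSEC 15 were called higher and 1 lower.

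The tissues shared 14 rises, which were 14 of the 42 in liver and 14 of the 15 in LSEC, and 1 fall. Of all the matrix genes measured, 87.5% rose in liver and 30.6% in LSEC. The share of all genes that rose in both tissues was not counted, so the overlap is given as a count only. Among the genes that rose in both, Ltbp2, Tnc and Vcan had the largest smaller-of-both rise. Their promoters are shown for this reason, as the 150 bases before the annotated start of transcription on the gene's own strand in RefSeq, build GRCm38.p6. Ltbp2 lies at chr12:84876492-84876641 (minus strand), Tnc at chr4:64047016-64047165 (minus strand, the first of its annotated starts) and Vcan at chr13:89742513-89742662 (minus strand). Capitals mark matches on either strand to the TATA box (TATAAA) or the GC box bound by SP1 (GGGCGG).
Ltbp2: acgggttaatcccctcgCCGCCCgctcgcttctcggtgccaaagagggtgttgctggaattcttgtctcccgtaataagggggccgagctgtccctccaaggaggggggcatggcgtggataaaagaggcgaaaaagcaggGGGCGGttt
Tnc: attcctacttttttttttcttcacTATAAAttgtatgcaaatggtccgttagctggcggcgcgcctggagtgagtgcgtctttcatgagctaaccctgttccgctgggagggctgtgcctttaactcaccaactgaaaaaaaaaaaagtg
Vcan: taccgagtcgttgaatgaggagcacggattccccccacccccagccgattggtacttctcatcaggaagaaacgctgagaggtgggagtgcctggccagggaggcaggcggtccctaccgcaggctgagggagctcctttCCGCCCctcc

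Ltbp2 held a GC box on each strand, Vcan held 1 on the opposite strand, and the printed Tnc window held a TATA box. RefSeq promoters were at hand for 35 of the 49 genes, with 46 start sites, and were searched over 250 bases before the start. GGGCGG stood in 56.5% of these 46 promoters, against 32.7% of all 32851 promoters, and TATAAA in 17.4%, against 12.4%. The TEAD element GGAATG stood in 10.9%, against 12.6% of all, and the AP-1 element TGANTCA in 4.35%, against 6.75%. These are matches of letters and not binding sites.

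Small leucine-rich proteoglycans, which sit on collagen fibrils and control their thickness, rose in liver for 5 of 7 genes and for 0 of 7 in LSEC. Lum, the keratan sulfate proteoglycan lumican (mm10, chromosome 10, 97565128 to 97572703), had 4143, 3060.2 and 5392 normalized reads in the NASH livers, against 643, 705 and 842 in the chow livers. Every NASH library was above every chow library, and the log2 fold change was 2.49 ± 0.19 (SE; adjusted p = 1.31e-05). In LSEC, Lum had 2887, 1372 and 1543 normalized reads in NASH and 695, 428 and 1103 in chow, again with no overlap, but the difference of 1.41 ± 0.40 did not pass (adjusted p = 0.0754). Bgn, the TGF-beta-binding proteoglycan biglycan, had 24145, 20919 and 27155 in NASH livers and 9069.8, 9235 and 9644 in chow livers, a rise of 1.36 ± 0.11 (adjusted p = 1.76e-05). In LSEC it had 43851, 43757 and 38368 in NASH, against 46305, 48297 and 54538 in chow. All NASH LSEC libraries were below all chow ones, with a log2 difference of -0.24 that did not pass (adjusted p = 0.369).

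Fmod, which like Lum guides collagen fibril assembly, had 476, 315 and 604 normalized reads in NASH livers and 139, 103 and 186 in chow livers (1.69, adjusted p = 0.000821). Prelp, which anchors basement membranes to connective tissue, had 7658, 6899.5 and 7291 in NASH livers and 3609, 3684 and 4099.8 in chow livers (0.94, adjusted p = 3.86e-05). Dcn, the collagen-binding decorin, had 25223, 25482 and 33502 in NASH livers and 15532, 17160.2 and 17268 in chow livers (0.74, adjusted p = 0.00111). All 3 rose in liver, with no overlap. Ogn and Aspn overlapped between groups in liver, with log2 differences of 0.20 (95% interval -0.33 to 0.74) and 0.70 (-0.32 to 1.73). Aspn was read at no more than 15.6 normalized reads in any liver library. In LSEC none of Dcn (0.84), Fmod (1.28), Ogn (-0.67), Aspn (0.46) or Prelp (-0.03) passed. Dcn had 34079, 24004 and 14381 in NASH LSEC and 13009, 7372 and 21262 in chow LSEC, and the third NASH library lay among the chow libraries. Fmod had 141, 96.1 and 222 in NASH LSEC and 78.3, 115 and 22.5 in chow LSEC, and Prelp had 13369.6, 11811 and 11111 in NASH LSEC and 14198, 8794 and 15021 in chow LSEC, both with overlap.

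Of the large proteoglycans, Vcan rose in both tissues. It encodes versican, which binds hyaluronan in provisional matrix (mm10, chromosome 13, 89655312 to 89742509). It had 104, 125 and 211 normalized reads in NASH livers and 10.7, 15.1 and 5.13 in chow livers, which put every NASH library far above the chow libraries (3.75 ± 0.41, SE; adjusted p = 9.48e-05). NASH LSEC had 137, 67.2 and 109.7 and chow LSEC had 16.7, 13.1 and 15.4, also without overlap (2.67 ± 0.35; adjusted p = 0.0109). The LSEC call was lost without the third LSEC NASH library (2.60, adjusted p = 0.0616). Hspg2 encodes perlecan, the heparan sulfate proteoglycan of basement membranes. It had 2664, 2263 and 3137 in NASH livers, against 1686, 1613 and 1977 in chow livers, a rise of 0.60 ± 0.13 (adjusted p = 0.00409). The LSEC values were 25879, 19466 and 30387 in NASH and 35943, 26847 and 25281 in chow, with overlap (-0.22, adjusted p = 0.563).

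Each of the 5 elastic fibre and microfibril genes measured in liver rose, and 2 of 6 did in LSEC. Eln, the elastin that gives elastic fibres their recoil (mm10, chromosome 5, 134702593 to 134747323), had 1049, 879.7 and 1438 normalized reads in NASH livers and 108, 89.6 and 86.1 in chow livers. This was a log2 fold change of 3.53 ± 0.19 (SE; adjusted p = 2.22e-06), with no overlap. The LSEC libraries had 737, 1661 and 1584 in NASH, against 803, 493 and 543 in chow. The first NASH library lay below the highest chow library and the test did not pass (1.06 ± 0.34, adjusted p = 0.104), but it did pass without the first LSEC NASH library (1.44, adjusted p = 0.0438).

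Fbn1, the fibrillin that forms the microfibril backbone, rose by 2.46 in liver and 1.33 in LSEC (adjusted p = 3.61e-06 and 0.0322). Mfap2, a small microfibril protein, rose by 2.93 in liver and 1.31 in LSEC (adjusted p = 0.000136 and 0.039). The LSEC call of Fbn1 was lost without the first or the third LSEC NASH library or the second or the third LSEC chow library (1.14 to 1.28, adjusted p = 0.0609 to 0.114), and that of Mfap2 was lost without any 1 LSEC NASH library or any 1 LSEC chow library (1.19 to 1.41, adjusted p = 0.0626 to 0.123). Of the exon bases of Fbn1, 20.1% lie opposite another gene, and for Prelp, Nid2, Igfbp7 and Thbs3 the share is 6.59 to 9.68%. The liver kit does not mark strand, so reads of such partners cannot be told apart. Mfap4, which crosslinks elastic fibres to cells, had 356, 243 and 442 in NASH livers and 59.3, 55.0 and 59.5 in chow livers, a rise with no overlap (2.52, adjusted p = 3.61e-05). In LSEC it had 88.9, 69.0 and 113 normalized reads in NASH and 9.4, 129 and 25.6 in chow, with the second chow library above the rest, and it did not pass (1.44, adjusted p = 0.325). It passed without the second LSEC chow library (2.43, adjusted p = 0.0396). Emilin1, an elastic fibre protein that restrains TGF-beta maturation, had 3309.8, 3080.3 and 4132 in NASH livers and 1566, 1457 and 1649 in chow livers, also a rise with no overlap (1.16, adjusted p = 6.14e-05). Its LSEC values, 6966, 5727 and 5897 in NASH LSEC and 8524, 6207 and 9265 in chow LSEC, overlapped (-0.35, adjusted p = 0.256). Mfap5 had 1.93, 2.8 and 3.72 normalized reads in NASH LSEC and 4.18, 9.79 and 5.12 in chow LSEC, and did not pass (-0.90, adjusted p = 0.287).

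The fibulins, which tie elastin, microfibrils and basement membranes together, rose in liver for 5 of 5 genes and in LSEC for 2 of 5. Fbln1 (mm10, chromosome 15, 85205949 to 85286535) had 332, 159.8 and 358 normalized reads in NASH livers and 79.5, 52.9 and 43.1 in chow livers (2.22 ± 0.33, SE; adjusted p = 0.000594). In LSEC it had 42.5, 31.7 and 52.1 in NASH and 40.7, 75.1 and 43.0 in chow, groups that overlapped (-0.30, adjusted p = 0.646). Fbln2 and Fbln5 rose in both tissues. Fbln2 had 2481, 4326 and 4413 normalized reads in NASH LSEC, against 1478, 1007 and 1329.7 in chow LSEC, a rise of 1.53 ± 0.25 (adjusted p = 0.0196) beside 1.75 in liver. Fbln5, needed for elastic fibre assembly, rose by 0.96 in LSEC (adjusted p = 0.0101) and 1.14 in liver. These LSEC calls were lost without the second or the third LSEC NASH library or the third LSEC chow library (1.38 to 1.57, adjusted p = 0.0691 to 0.0818) for Fbln2 and without the third LSEC NASH library (0.96, adjusted p = 0.056) for Fbln5. Efemp1 and Efemp2 rose in liver and did not pass in LSEC. Efemp1 had 1629, 1393 and 1939 in NASH livers and 758, 915 and 1122 in chow livers (0.83, adjusted p = 0.00233), and 1917, 2137 and 1094 in NASH LSEC and 942, 708 and 1352 in chow LSEC (0.77, adjusted p = 0.178). Efemp2, which like Fbln5 is needed for elastic fibres, had 686, 689.7 and 882 in NASH livers and 230.2, 239.6 and 265 in chow livers (1.61, adjusted p = 2.9e-05), and 1074, 983 and 721 in NASH LSEC and 780.4, 904 and 957 in chow LSEC (0.06, adjusted p = 0.868). Both genes were separated between groups in liver and overlapped in LSEC.

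The latent TGF-beta binding proteins rose in liver for 4 of 4 genes and in LSEC for 2 of 4. Ltbp2, which belongs to the family by structure but binds microfibrils and not latent TGF-beta (mm10, chromosome 12, 84783212 to 84876532), had 499, 288 and 424 normalized reads in NASH livers, against 53.4, 33.5 and 33.8 in chow livers. NASH LSEC had 152, 252 and 288, against 6.27, 19.6 and 8.19 in chow LSEC. Neither tissue showed overlap, and the rise was 3.29 ± 0.26 in liver (SE; adjusted p = 1.95e-05) and 4.33 ± 0.47 in LSEC (adjusted p = 0.00616). Of its exon bases, 9.34% lie opposite another gene. Ltbp3, which carries latent TGF-beta, rose by 2.10 in liver and 1.34 in LSEC (adjusted p = 1.7e-05 and 0.0112), and its LSEC call was lost without the second or the third LSEC NASH library (1.28 to 1.36, adjusted p = 0.0512 to 0.056).

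Ltbp1, which tethers latent TGF-beta to the matrix, had 849, 671 and 1027 in NASH livers and 281, 251 and 278 in chow livers, a rise with no overlap (1.63, adjusted p = 5.46e-05). In LSEC, Ltbp1 had 572, 460.0 and 461 normalized reads in NASH and 346, 297 and 331 in chow, without overlap but short of the threshold (0.61 ± 0.16, SE; adjusted p = 0.0571). Ltbp4 had 4786, 4399 and 5281 in NASH livers, against 3631, 3625 and 4118 in chow livers, the smallest of the 42 liver rises (0.35, adjusted p = 0.0153). That call was lost without the third liver NASH library or the first or the second liver chow library (0.28 to 0.32, adjusted p = 0.0588 to 0.0702). In LSEC it lay the other way, at 34399, 32319 and 36659.5 in NASH and 59422, 42223 and 55926 in chow. Every NASH library was below every chow library, yet the difference did not pass in limma (-0.59 ± 0.18, adjusted p = 0.0908), while DESeq2 on the recovered reads gave an adjusted p = 0.0078.

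Among laminin chains and nidogens, 8 of 10 rose and 2 fell in liver, while 4 rose and 1 fell in LSEC. Lama3 and Lamb3 encode laminin chains of epithelial basement membranes. Lama3 had 110.1, 205 and 119.8 normalized reads in NASH livers, against 439, 407 and 361 in chow livers, and 178, 176 and 349 in NASH LSEC, against 970.5, 706 and 549 in chow LSEC. All NASH libraries were below all chow libraries in both tissues. It fell by 1.52 on the log2 scale in liver (adjusted p = 0.00061) and by 1.70 in LSEC (adjusted p = 0.0281). The LSEC call was lost without the first or the second LSEC NASH library or the first or the third LSEC chow library (-1.89 to -1.48, adjusted p = 0.0553 to 0.0985).

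Lamb3 (mm10, chromosome 1, 193207699 to 193343878) moved in opposite directions. In liver it had 465, 502 and 438 normalized reads in NASH, against 1972, 1780.4 and 1144 in chow, a fall with no overlap (-1.76 ± 0.18, SE; adjusted p = 7.17e-05). NASH LSEC had 49.3, 189 and 105, against 9.4, 11.97 and 9.21 in chow LSEC, a rise with no overlap (3.18 ± 0.50; adjusted p = 0.0169). The rise in LSEC was lost without the second or the third LSEC NASH library or the third LSEC chow library (2.71 to 3.14, adjusted p = 0.053 to 0.0808). Markers of cholangiocytes, an epithelial cell type, were called higher for 6 of 6 genes in liver and 1 of 6 in LSEC. Over all genes the shares called higher were 25% and 5.24%. The cholangiocyte markers summed to 2043 to 3821 normalized reads in NASH livers and 1356 to 1406 in chow livers. In LSEC they summed to 1313 to 6500 in NASH and 696 to 1229 in chow, and none of the 6 was at 0 in every library. Hepatocyte markers were called lower for 6 of 8 genes in liver, against 21% of all liver genes, and 0 of 8 were called in LSEC. The part of either list in the Lamb3 values was not tested.

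Lama2, the chain of muscle and stromal basement membranes (mm10, chromosome 10, 26980036 to 27619758), had 506, 467 and 561 normalized reads in NASH livers, against 123, 112 and 154 in chow livers. NASH LSEC had 306, 162 and 339 and chow LSEC had 65.8, 48.96 and 72.7. It rose by 1.98 ± 0.16 in liver (SE; adjusted p = 2.28e-05) and 2.04 ± 0.33 in LSEC (adjusted p = 0.0183), with no overlap in either tissue. Lamc1, the gamma chain shared by most laminins, rose by 0.67 in liver and 0.87 in LSEC, and the laminin linker Nid2 rose by 0.90 in liver and 1.23 in LSEC (adjusted p = 0.0253 for Lamc1 and 0.027 for Nid2, both in LSEC). The LSEC calls were lost without the first or the third LSEC NASH library or the third LSEC chow library (1.84 to 2.16, adjusted p = 0.0584 to 0.0822) for Lama2, without the first or the third LSEC NASH library or the third LSEC chow library (0.76 to 0.90, adjusted p = 0.0768 to 0.0941) for Lamc1 and without the first or the third LSEC NASH library or the second or the third LSEC chow library (1.08 to 1.27, adjusted p = 0.052 to 0.11) for Nid2.

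Nid1, the other linker, had 3070.3, 3319 and 3892 normalized reads in NASH livers and 1116, 973 and 1254 in chow livers (1.62, adjusted p = 1.33e-05), and overlapping values in LSEC, at 15042, 14509 and 18241 in NASH LSEC and 14697, 13217 and 13922 in chow LSEC (0.19, adjusted p = 0.435). Lama4 and Lama5, the alpha chains of endothelial basement membranes, rose in liver and did not pass in LSEC. Lama4 had 473, 468 and 549 in NASH livers and 336, 333 and 404 in chow livers (0.47, adjusted p = 0.0157), and 6069.8, 4553 and 7256 in NASH LSEC and 6878, 4442 and 5838 in chow LSEC (0.06, adjusted p = 0.901). Lama5 had 602, 362 and 680.5 in NASH livers and 282, 248 and 273 in chow livers (0.98, adjusted p = 0.00466), and 1273, 1191 and 1689 in NASH LSEC and 2525, 1678 and 1438 in chow LSEC (-0.42, adjusted p = 0.308). The LSEC groups overlapped for both. The liver call of Lama4 was lost without the third liver NASH library or the first or the second liver chow library (0.40 to 0.43, adjusted p = 0.0579 to 0.0688).

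Lamb1 and Lamb2 encode alternative beta chains and both rose in liver. Lamb1 had 1212, 1235 and 1560.4 in NASH livers and 649, 705 and 761 in chow livers (0.91, adjusted p = 0.000302), and Lamb2 had 799, 607 and 837 in NASH livers and 521, 504 and 511 in chow livers (0.53, adjusted p = 0.00983). In LSEC their estimates had opposite signs and did not pass. Lamb1 had 1689.9, 1055 and 1007 in NASH LSEC and 768, 317 and 814 in chow LSEC, all NASH libraries above chow (1.06, adjusted p = 0.138). Lamb2 had 2759, 2597 and 2847 in NASH LSEC and 4005, 3266 and 3535 in chow LSEC, all NASH libraries below chow (-0.39, adjusted p = 0.0869). Per exon length, the ratio of Lamb1 to Lamb2 reads was 0.376, 0.249 and 0.217 in NASH LSEC, against 0.118, 0.0594 and 0.141 in chow LSEC, without overlap. In liver it was 0.929, 1.25 and 1.14 in NASH, against 0.764, 0.858 and 0.914 in chow. An exact two-sided permutation test gave p = 0.1 in both tissues, the smallest that 3 against 3 libraries allow.

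All 12 matricellular and cell-binding genes rose in liver, and 4 did in LSEC. Tnc, the tenascin of wound matrix (mm10, chromosome 4, 63959785 to 64047015), had 429, 667 and 605 normalized reads in NASH livers, against 59.3, 63.7 and 117 in chow livers. NASH LSEC had 681, 547 and 439.7, against 30.3, 19.6 and 57.3 in chow LSEC. The groups were far apart in both tissues, with rises of 2.85 ± 0.27 in liver (SE; adjusted p = 4.77e-05) and 4.03 ± 0.39 in LSEC (adjusted p = 0.0048). Thbs1, a thrombospondin that activates latent TGF-beta (mm10, chromosome 2, 118111876 to 118127133), had 622, 623 and 593 in NASH livers and 114, 90.6 and 112 in chow livers. The LSEC values were 1098, 863 and 973 in NASH, against 107, 183 and 89.1 in chow. It rose by 2.53 ± 0.15 in liver (adjusted p = 3.1e-06) and 3.01 ± 0.27 in LSEC (adjusted p = 0.00389), again without overlap.

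Postn encodes periostin, which binds collagen and integrins and is made by activated fibroblasts. It had 5006, 3504 and 2222 normalized reads in NASH LSEC, against 625, 449 and 1012 in chow LSEC, a rise of 2.36 ± 0.37 (SE; adjusted p = 0.0168) beside 1.08 in liver (adjusted p = 0.00317). The LSEC call was lost without the first or the second LSEC NASH library (2.08 to 2.34, adjusted p = 0.0516 to 0.068). Fstl1, a secreted glycoprotein related to follistatin and SPARC, had the smallest standard error of the 15 LSEC rises, with 1873, 1684 and 1733 normalized reads in NASH and 738, 669 and 697 in chow. It rose by 1.33 ± 0.11 in LSEC (adjusted p = 0.00322) and 2.50 ± 0.12 in liver (adjusted p = 1.35e-06).

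Other matricellular genes rose in liver and did not pass in LSEC. Sparc, a collagen-binding glycoprotein, had 12232, 11359 and 14884 normalized reads in NASH livers, against 3117, 3215 and 3521 in chow livers (1.96 ± 0.11, SE; adjusted p = 2.78e-06). In LSEC it had 46052, 41437 and 41249.6 in NASH and 33596, 34442 and 38203 in chow, where the groups did not overlap but the difference was 0.28 (adjusted p = 0.276). Ccdc80 encodes a secreted matrix protein that binds cells (mm10, chromosome 16, 45093402 to 45128077). It had 3582, 3012 and 3928 in NASH livers and 725, 727 and 795 in chow livers (2.22 ± 0.11; adjusted p = 1.45e-06). LSEC held 8935, 7512 and 8606 in NASH and 9308, 7633 and 8401 in chow, groups that overlapped (-0.02, 95% interval -0.32 to 0.29). Igfbp7 encodes a secreted binder of insulin-like growth factors that is deposited around vessels. It rose to 15013, 10707 and 15371 in NASH livers, against 5094, 5468 and 5607 in chow livers (1.33, adjusted p = 6.5e-05), and in LSEC all NASH libraries were below all chow libraries, at 60290.4, 57928 and 46005 in NASH LSEC, against 66109, 98756 and 75334 in chow LSEC (-0.54, adjusted p = 0.174).

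The thrombospondins Thbs2 and Thbs3 also rose in liver without passing in LSEC. Thbs2 had 815, 864 and 1342 in NASH livers and 182, 170.5 and 229 in chow livers (2.35, adjusted p = 2.67e-05), and 830.0, 447 and 558 in NASH LSEC and 401, 400.4 and 396 in chow LSEC (0.57, adjusted p = 0.171). Thbs3 had 102, 78.4 and 101 in NASH livers and 27.3, 22.7 and 36.9 in chow livers (1.68, adjusted p = 0.000827), and 34.8, 29.9 and 39.0 in NASH LSEC and 12.5, 28.3 and 17.4 in chow LSEC (0.87, adjusted p = 0.207). For both, all NASH libraries were above all chow libraries in LSEC as well as in liver. Sparcl1, a relative of Sparc, had 2621, 1471 and 2881 in NASH livers and 529, 604 and 759 in chow livers (1.84, adjusted p = 0.000221), and 1445, 1113 and 1256 in NASH LSEC and 662, 1063 and 1259 in chow LSEC (0.40, adjusted p = 0.349). The integrin-binding Tgfbi had 8823, 8576 and 10694 in NASH livers and 4225, 4626 and 4473 in chow livers (1.07, adjusted p = 4.49e-05), and 7854, 5092 and 4083 in NASH LSEC and 3445, 1889 and 4155 in chow LSEC (0.86, adjusted p = 0.164). Smoc2, a basement membrane protein, had 2386, 1652 and 2761 in NASH livers and 451, 456 and 599 in chow livers (2.15, adjusted p = 2.9e-05), and 600.0, 359 and 470.4 in NASH LSEC and 229, 146 and 338 in chow LSEC (1.05, adjusted p = 0.0984). These 3 genes rose in liver and did not pass in LSEC, where the groups overlapped for Sparcl1 and Tgfbi and were apart for Smoc2.

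The 3 other matrix-associated genes differed from each other in liver. Mgp, a matrix protein that inhibits calcification (mm10, chromosome 6, 136872435 to 136875823), rose to 589, 266 and 559 normalized reads in NASH livers, against 74.7, 62.6 and 59.5 in chow livers (2.75 ± 0.29, SE; adjusted p = 7.66e-05). Vtn, the plasma protein vitronectin that hepatocytes secrete, had 91491, 88919.9 and 71101 in NASH livers and 124259, 139504 and 127952 in chow livers and fell by 0.65 on the log2 scale (adjusted p = 0.00631). Ecm1, a glycoprotein that keeps latent TGF-beta inactive in liver, had 7147, 7918 and 9096 in NASH livers and 9992, 11237 and 12769 in chow livers and fell by 0.49 (adjusted p = 0.00782). Both falls depended on the scaling. Scaling by total reads, which raises the median of all liver genes by 0.40, left Vtn at -0.23 (adjusted p = 0.0913) and Ecm1 at -0.08 (adjusted p = 0.664). Hepatocyte markers fell beside them, with 6 of 8 lower and 0 higher, and summed to 2759435 to 3108726 in NASH livers and 5943616 to 6441614 in chow livers. None of the 8 was at 0 in every library. In LSEC these markers summed to 36831 to 72832 in NASH and 7175 to 81233 in chow. Scaled by exon length and total reads (RPKM), Vtn stood at 906 in NASH livers and 1061 in chow livers. Its level was 37.07 in NASH LSEC and 16.05 in chow LSEC. Ecm1 stood at 70.66 in NASH livers and 74.32 in chow livers, against 316 in NASH LSEC and 318 in chow LSEC. The part of hepatocyte markers in the 2 falls was not tested. In LSEC, Mgp (-0.37), Ecm1 (-0.12) and Vtn (1.63) overlapped between groups and did not pass. Mgp had 85.0, 162 and 263 in NASH LSEC and 131, 378 and 159 in chow LSEC, and Ecm1 had 17259.6, 16929 and 8786 in NASH LSEC and 15917, 9418 and 22198 in chow LSEC. Vtn had 901, 1414 and 1745 in NASH LSEC and 242, 1512 and 204 in chow LSEC, and passed without the second LSEC chow library (2.55, adjusted p = 0.0111), the library with the most hepatocyte marker reads.

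**Figure D2:**
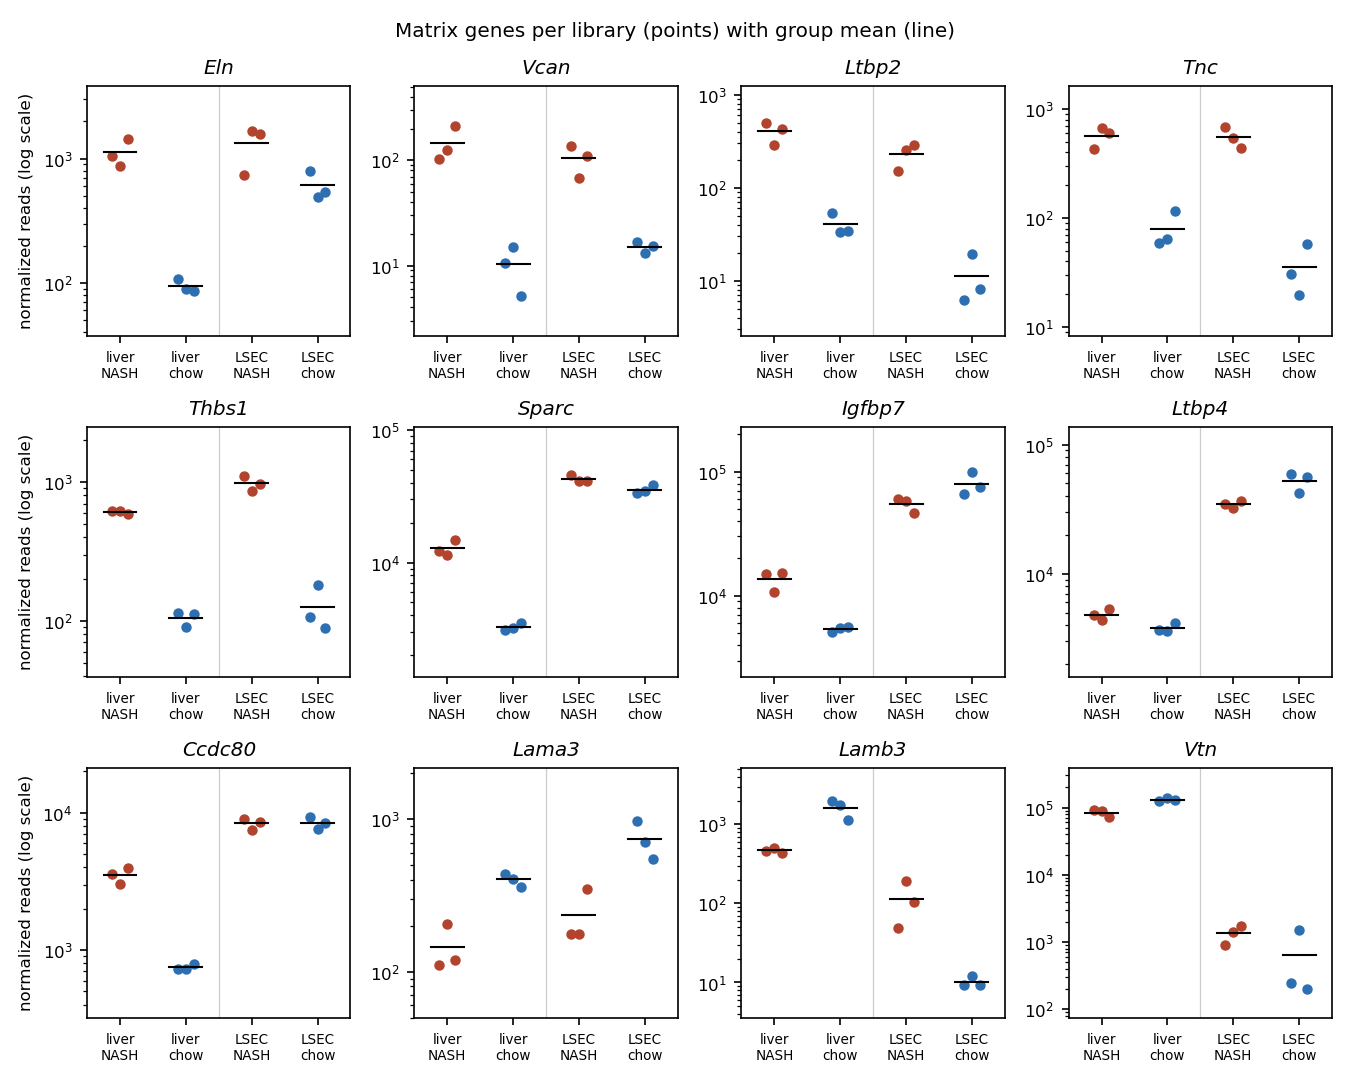
Normalized reads per library (y axis, log scale; points are the 3 libraries of a group in NASH, red, and chow, blue, and lines are group means) for 12 matrix genes in whole liver and LSEC. Ltbp2, Tnc, Thbs1 and Vcan are higher in every NASH library of both tissues, Eln and Ccdc80 are separated in liver and overlap in LSEC, and Lamb3 lies in opposite directions in the tissues.

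The NASH effect was compared between the tissues, as the liver log2 fold change minus the LSEC log2 fold change. It was higher in liver for 22 of 48 genes and lower for 1, while over the 15786 genes tested 11.5% were called higher and 7.99% lower, 19.5% in all. The median difference was 0.90, against 0.05 over all genes tested. Of the 22 genes, 18 rose in liver without passing in LSEC and 4 (Fbn1, Mfap2, Ltbp3 and Fstl1) rose in both. The largest differences of these 22 were Mgp at 3.12 ± 0.59 (SE; adjusted p = 0.00407), Fbln1 at 2.51 ± 0.49 (adjusted p = 0.00225), Eln at 2.48 ± 0.39 (adjusted p = 0.00139) and Ccdc80 at 2.23 ± 0.17 (adjusted p = 2.44e-06). The basement membrane genes among the 22 had smaller differences than these, with Nid1 at 1.43, Lama5 at 1.40, Lamb2 at 0.93 and Hspg2 at 0.83. The 1 gene with a lower effect in liver was Lamb3, also a basement membrane gene, at -4.94 ± 0.53 (adjusted p = 0.000375), the largest called difference in size.

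Leaving out 1 library ended the difference call for Prelp, Hspg2, Fbn1, Mfap2 and Ltbp3. For Prelp this was without the second or the third LSEC NASH library or the first or the third LSEC chow library (0.83 to 0.96, adjusted p = 0.051 to 0.0739), for Fbn1 without the first LSEC NASH library or the first or the third LSEC chow library (0.95 to 1.21, adjusted p = 0.0565 to 0.0667) and for Mfap2 without the third liver NASH library, the third LSEC NASH library or the third LSEC chow library (1.42 to 1.52, adjusted p = 0.0508 to 0.0608). For Ltbp3 it was without the first or the third liver NASH library, the first or the third liver chow library, any 1 LSEC NASH library or the first or the third LSEC chow library (0.64 to 0.82, adjusted p = 0.0532 to 0.106). For Hspg2 it was without the first or the third liver NASH library, the first or the second liver chow library, the first or the second LSEC NASH library or any 1 LSEC chow library (0.65 to 0.93, adjusted p = 0.05002 to 0.0998), and edgeR's interaction term did not call it either (0.91, adjusted p = 0.0558). Ltbp2 (-1.04, 95% interval -2.21 to 0.13), Tnc (-1.18, -2.21 to -0.15), Postn (-1.28, -2.22 to -0.35), Thbs1 (-0.47, -1.16 to 0.21) and Vtn (-2.27, -3.98 to -0.56) leaned towards LSEC and did not pass after adjustment. Leaving out 1 library brought each of these past the threshold: Ltbp2 without the second LSEC chow library (-1.48, adjusted p = 0.0398), Tnc without the third LSEC chow library (-1.58, adjusted p = 0.0248), Thbs1 without the second LSEC chow library (-0.77, adjusted p = 0.036) and Vtn without the second LSEC chow library (-3.19, adjusted p = 0.000228). Postn passed without the second liver NASH library, the first liver chow library, the third LSEC NASH library or the third LSEC chow library (-1.60 to -1.37, adjusted p = 0.0317 to 0.0472). Of 10 genes that rose in liver, did not pass in LSEC and had no called difference, Lum and Smoc2 passed in some of these repeats, Lum without the second LSEC chow library (1.43, adjusted p = 0.0309) and Smoc2 without the second liver NASH library, the third liver chow library or the second LSEC chow library (1.23 to 1.41, adjusted p = 0.0123 to 0.0411). Ogn, which passed in neither tissue, had a called difference without the first liver NASH library or the first LSEC chow library (1.11 each, adjusted p = 0.0382 to 0.0437).

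**Figure D3:**
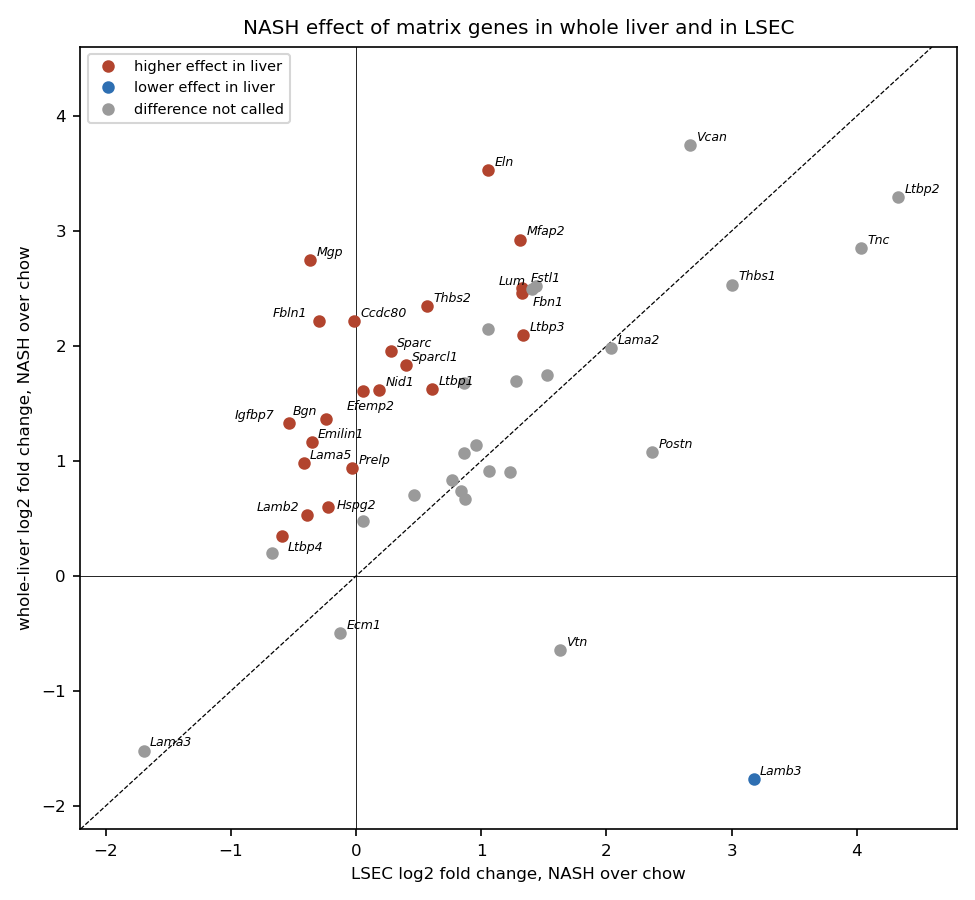
Log2 fold change of NASH over chow in whole liver (y axis) against LSEC (x axis) for the 48 matrix genes measured in both; each point is a gene, coloured by the test of the liver minus LSEC difference, and the dashed line marks equal effects. The 22 genes with a higher effect in liver lie above the line, and Lamb3 lies far below it, at -1.76 in liver and 3.18 in LSEC.

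Levels were compared between genes within a tissue as RPKM, the reads of a gene scaled by its exon length and by the library's total. In liver Vtn stood far above the rest, at 906 ± 78.1 RPKM in NASH and 1061 ± 56.7 in chow (SD, n = 3), followed in NASH liver by Igfbp7 at 250.8 ± 56.9 and Dcn at 106.6 ± 24.0. Vtn took 28.9 to 39.9% of the reads of all 48 genes in NASH livers and 61.6 to 65.3% in chow livers. Without Vtn, the genes took 0.284 to 0.409% of all reads in NASH livers and 0.115 to 0.136% in chow livers, ranges that did not overlap. RPKM and shares of all reads are scaled by total reads. That scaling raises the median log2 fold change of all genes by 0.40 in liver and 0.135 in LSEC, so NASH and chow differ here otherwise than in normalized reads. In LSEC the order was led by Igfbp7, at 2517 ± 354 RPKM in NASH and 3336 ± 648 in chow, then Sparc at 629.5 ± 36.3 in NASH and 471.9 ± 34.8 in chow, and Bgn at 382.7 ± 29.5 in NASH and 411.5 ± 37.0 in chow. All 49 genes together took 1.71 to 1.98% of reads in NASH LSEC and 1.63 to 1.88% in chow LSEC, which overlap.

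The LSEC rises lay among the genes at lower levels. The 12 genes with the highest mean level over all LSEC libraries, a number chosen after the values were seen, were Igfbp7, Sparc, Bgn, Ltbp4, Ecm1, Prelp, Dcn, Nid1, Ccdc80, Hspg2, Emilin1 and Tgfbi. None of these 12 was called in limma and their median log2 fold change was -0.08, while of the other 37 genes 15 rose and 1 fell, with a median of 1.06. At an unadjusted p under 0.05, 27 of the 49 genes passed in LSEC, against 26% of all LSEC genes, and Ltbp4, Tgfbi and Igfbp7 were the 3 of the 12 that did. In liver, 10 of the 12 genes at the highest levels rose and 2 fell, with a median of 1.00, and of the other 36 genes 32 rose and 2 fell, with a median of 1.69. Ltbp4, Igfbp7, Bgn, Sparc and Hspg2 together held 58.6 to 62.4% of the reads of all 49 genes in NASH LSEC and 67.2 to 76.2% in chow LSEC.

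**Figure D4:**
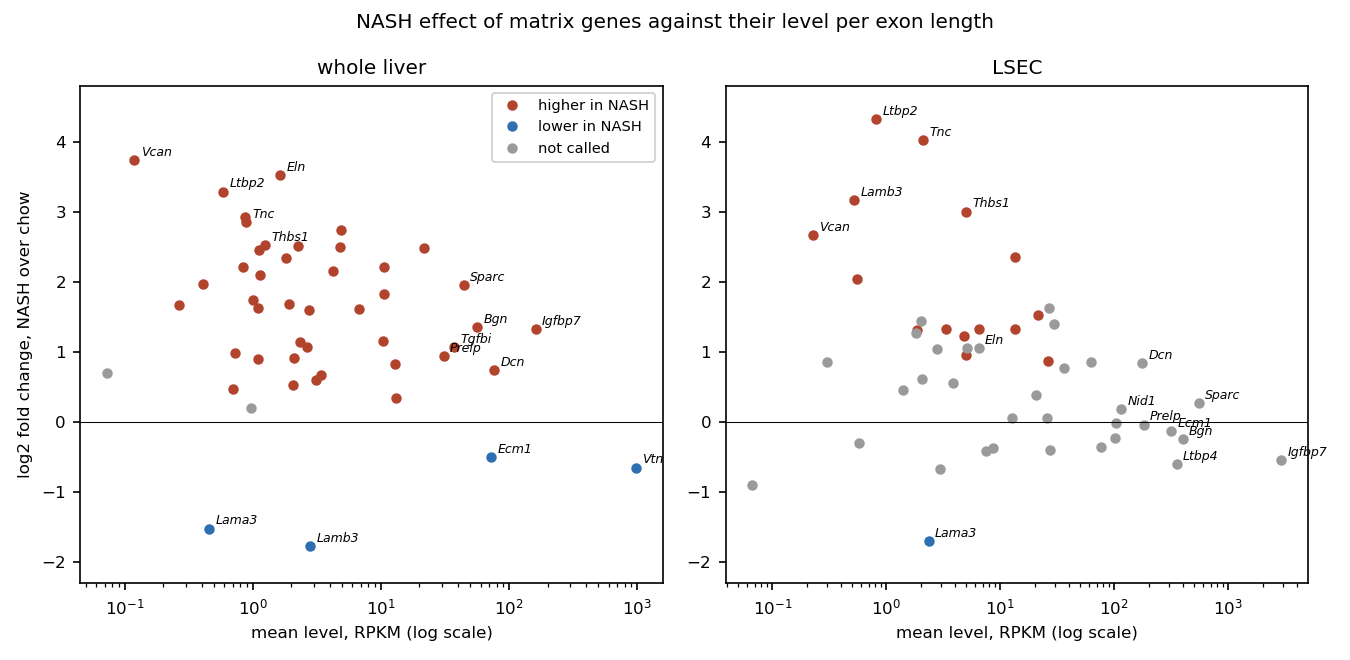
Log2 fold change of NASH over chow (y axis) against the mean of the NASH and chow levels in RPKM (x axis, log scale) for each matrix gene in whole liver (left) and LSEC (right); colours give the limma call. In LSEC the 12 genes at the highest levels lie between Ltbp4 at -0.59 and Tgfbi at 0.86, and the called rises lie at lower levels.

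Markers of other cell types moved beside these genes. For their counts too, the shares over all genes were 25% higher and 21% lower in liver, and 5.24% and 2.86% in LSEC. Among stellate cell markers, 6 of 10 were higher and 0 lower in liver, and 2 of 10 were higher in LSEC. They summed to 18441 to 26155 normalized reads in NASH livers, 12241 to 14291 in chow livers, 15843 to 28306 in NASH LSEC and 5217 to 17087 in chow LSEC. Pdgfrb, the growth factor receptor of stellate cells and pericytes, had 1692, 925 and 1068 in NASH LSEC, against 373, 228 and 549.7 in chow LSEC, a rise of 1.72 (adjusted p = 0.0337). Markers of portal fibroblasts and mesothelium were higher for 6 of 9 genes in liver and 3 of 9 in LSEC. Their sums were 4152 to 6141 in NASH livers, 1328 to 1454 in chow livers, 2851 to 3598 in NASH LSEC and 1485 to 2126 in chow LSEC. The LSEC sums do not stand for the whole list, whose median log2 fold change in LSEC was -0.07. Gpm6a was the largest part of them in NASH LSEC, at 1835, 1772 and 1498, against 555, 1174 and 610 in chow LSEC. Smooth muscle and myofibroblast markers were higher for 3 of 7 genes in liver and 0 of 7 in LSEC, with 1430 to 1990 in NASH livers, 658 to 1011 in chow livers, 2397 to 4784 in NASH LSEC and 504.6 to 7600 in chow LSEC. Within chow LSEC, the first library had 80.4 reads of Acta2, the smooth muscle actin, and the second had 3193.

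Macrophage markers were higher for 8 of 10 genes in liver and 6 of 10 in LSEC, with sums of 73259 to 116442 in NASH livers, 33084 to 49901 in chow livers, 46340 to 56996 in NASH LSEC and 9917 to 28714 in chow LSEC. Sinusoidal endothelial markers fell for 8 of 12 genes in liver and 6 of 12 in LSEC, with 1 higher in each, and summed to 25966 to 29228 in NASH livers and 40498 to 45076 in chow livers. General endothelial markers fell for 3 of 10 genes in liver and 1 of 10 in LSEC, and none rose. Their sums were 18218 to 20044 in NASH livers, 22743 to 24419 in chow livers, 218631 to 260033 in NASH LSEC and 304154 to 366894 in chow LSEC. Large-vessel endothelial markers were higher for 5 of 8 and lower for 1 of 8 in liver, and higher for 1 of 8 in LSEC. They summed to 7660 to 9857 in NASH livers, 3748 to 4042 in chow livers, 33239 to 35613 in NASH LSEC and 22457 to 24447 in chow LSEC. Platelet markers were higher for 1 of 4 genes in liver and 0 of 4 in LSEC, with 391 to 612 in NASH livers, 208 to 294 in chow livers, 309.8 to 330.4 in NASH LSEC and 178.6 to 217 in chow LSEC. No marker of these lists was at 0 in every library, and their part in the matrix gene results was not tested.

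**Figure D5:**
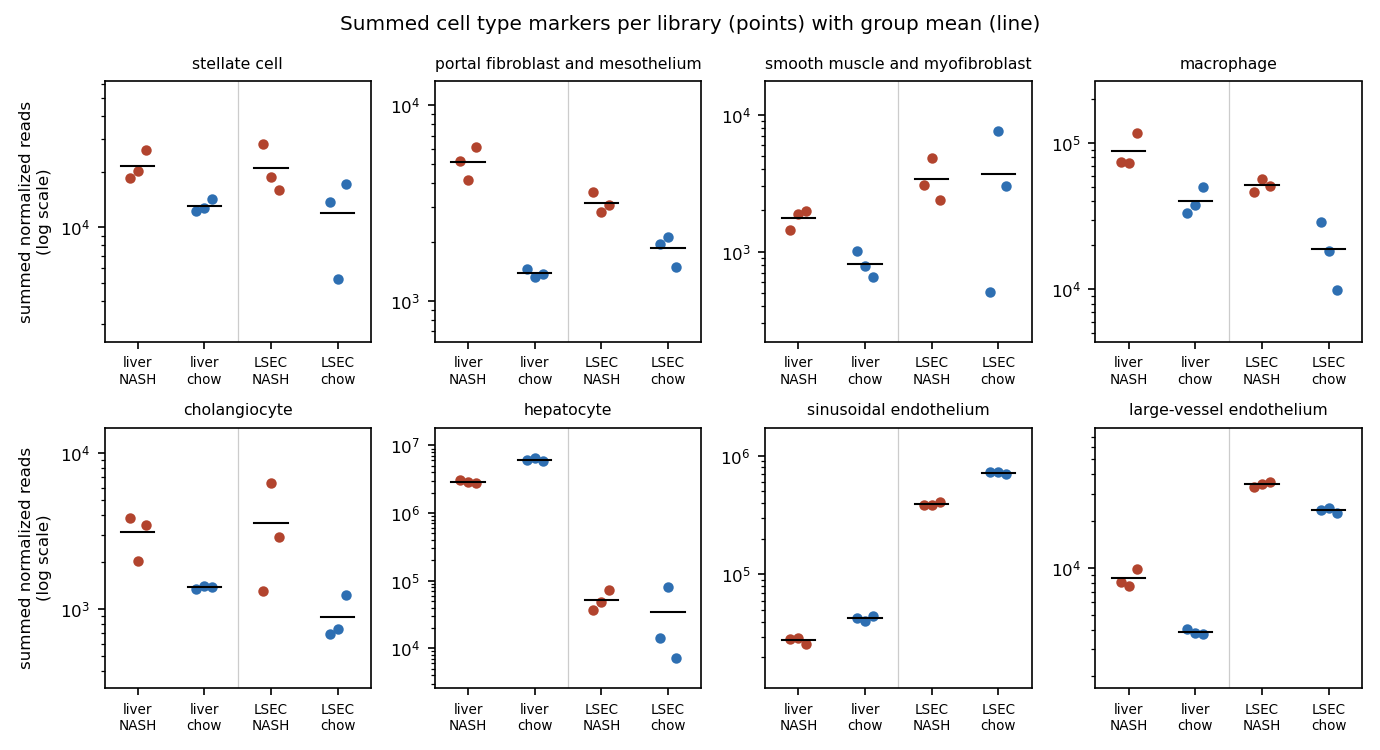
Summed normalized reads of 8 cell type marker lists per library (y axis, log scale; points are the 3 libraries of a group in NASH, red, and chow, blue, and lines are group means) in whole liver and LSEC. Macrophage sums and portal fibroblast and mesothelium sums are higher in every NASH library of both tissues, and sinusoidal endothelial sums are lower. In NASH LSEC, Gpm6a is the largest part of the portal fibroblast and mesothelium sum. The LSEC chow libraries are spread widely for smooth muscle and hepatocyte markers.

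Other genes of the matrix and of TGF-beta signalling were counted in the same way. Beside these counts, 25% of all genes were called higher and 21% lower in liver, and 5.24% and 2.86% in LSEC. Of other small leucine-rich proteoglycans, 4 of 8 rose in liver and 0 of 8 in LSEC, with Podn at 1.16 and Omd at 0.93 in liver. Tsku, the secreted proteoglycan named in the study's title, did not pass in either tissue (-0.02 in liver, 0.69 in LSEC with adjusted p = 0.0859). Of 32 other matrix glycoproteins 15 rose and 3 fell in liver, and 4 rose and 3 fell in LSEC. Spp1, the osteopontin of injured liver, rose by 3.58 in liver, and Matn2, a matrilin, rose by 2.07 in liver and 2.91 in LSEC. The falls were Igfbp4, Fndc1 and Smoc1 in liver (-0.64, -1.70 and -0.32). In LSEC they were Wisp1, Igfbp4 and Mmrn2 (-0.78, -0.61 and -0.52). The list summed to 121371 to 146777 normalized reads in NASH livers and 147485 to 158117 in chow livers. Its LSEC sums were 85618 to 126373 in NASH and 83101 to 90417 in chow. Of 8 other laminin chains and basement membrane partners, 5 rose and 1 fell in liver and 3 rose in LSEC. The basement membrane collagen Col15a1 (2.28 in liver, 3.84 in LSEC) and the heparan sulfate proteoglycan Agrn (0.69 in liver, 1.32 in LSEC) rose in both. The collagen gene Col18a1 was the 1 fall in liver (-0.34, adjusted p = 0.031) and rose in LSEC (2.43, adjusted p = 0.0244).

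Of cell-surface and other proteoglycans, 8 of 17 rose and 3 fell in liver, and 4 of 19 rose and 1 fell in LSEC. The glypican Gpc6 rose by 1.5 in liver and 2.54 in LSEC, while the syndecan Sdc1 fell in liver (-0.73). The syndecans Sdc2 and Sdc4 fell in liver (-0.66 and -0.63) and rose in LSEC (0.94 and 1.14). Srgn, the serglycin of secretory granules, rose in liver (0.83, adjusted p = 0.000155) and fell in LSEC (-0.98, adjusted p = 0.0493). Among enzymes that build glycosaminoglycan chains, 10 of 30 rose and 4 fell in liver, and 3 of 29 rose and 1 fell in LSEC. As a list these enzymes moved little, with a median log2 fold change of 0.13 in liver and -0.09 in LSEC. The chondroitin sulfotransferase Chst11 rose by 3.43 in liver and 1.69 in LSEC, and Glce, the epimerase of heparan sulfate synthesis, fell in liver (-0.81). Of 18 TGF-beta ligands, receptors and activators, 12 rose and 2 fell in liver, and 4 rose and 1 fell in LSEC. Their median log2 fold change was 0.61 in liver and 0.00 in LSEC. They summed to 26540 to 30558 normalized reads in NASH livers and 22408 to 24352 in chow livers. In LSEC their sums were lower in NASH, at 92259 to 95252, against 127839 to 134127 in chow. Itgb6, an integrin chain that activates latent TGF-beta, rose by 3.88 in liver and 3.92 in LSEC, and the ligand Tgfb3 by 1.91 in liver and 1.46 in LSEC. The ligand Tgfb2 rose by 2.34 in liver, and Itgav, the alpha chain that pairs with Itgb6, rose by 0.62 in liver and 1.10 in LSEC.

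The authors' deposited table gave an adjusted p under 0.05 to 42 higher and 4 lower matrix genes in NASH liver, and to 19 higher and 3 lower ones in NASH LSEC. For comparison, the authors' deposited table called, over all its genes with an adjusted p, 24.2% higher and 21.3% lower in NASH liver and 10.9% higher and 6.36% lower in NASH LSEC. The 6 genes called there and not in limma were Lum, Eln, Ltbp1 and Smoc2, higher, and Ltbp4 and Lamb2, lower, with an adjusted p of 0.00626, 0.0129, 0.00896, 0.0306, 0.00745 and 0.0359 in the authors' deposited table.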

How the data were processed

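The submitters' processing notes name STAR, HTSeq, DESeq2, FastQC and Seurat and the build mm10, and their versions were not given in the sources used here. For each tissue the authors deposited normalized reads per library (a signal, read counts divided by 1 factor per library), their log2 fold change, and their p-value and adjusted p-value. Dividing each library by the value of 1 read gave whole reads, within 0.01, for 100% of values, and these recovered read counts from the deposited table served the count tests. Per the labels' protocols the liver kit was TruSeq RNA v2, which is unstranded. Replicates of a group differed by a chi-square statistic of 17.29 to 101.7 per degree of freedom on recovered reads, so no library was a copy of another.

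Each tissue was tested alone, because the tables were normalized separately, with limma (3.58.1, R 4.3.3) and a variance trend on log2(normalized reads + 1), no filter, and Benjamini-Hochberg adjustment over all genes. The difference between tissues is the liver minus the LSEC log2 fold change over the root of the summed squared standard errors, with a two-sided t and Welch-Satterthwaite degrees of freedom, adjusted over 15786 genes. Alternatives were pseudocounts of 0.1 and 10, a minimum mean of 10 reads, scaling by total reads, edgeR (4.0.16) and DESeq2 (1.42.0) on recovered reads, an adjusted p under 0.01, an absolute log2 value of at least 1, a normal p for the difference, a replicate block in liver, and each library left out. The block in the difference was added after the data were seen. Positions and exon lengths come from an mm10 annotation, and the steps were tested on simulated data.

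The 49 genes and the 16 gene lists were chosen with earlier results of these data known. All 49 genes are named, by role. Values per library are given for genes with the largest change in their role and for genes whose call or direction differs between tissues, and for each list, counts and up to 3 genes with the smallest adjusted p in a tissue. Acta2 in LSEC, the syndecans Sdc2 and Sdc4, and the genes that fell among other matrix glycoproteins were named after their values were seen. Some results of a gene list are not reported here.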

Additional observations from a re-analysis of the deposited data

Results flagged for a closer look

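For 23 of the 48 matrix genes measured in both tissues, the difference of the NASH effect between liver and LSEC passed its own test. Each value below is the liver log2 fold change minus the LSEC log2 fold change, NASH over chow. Elastic fibre, microfibril and fibulin genes with a higher effect in liver were Fbln1 at 2.51, Eln at 2.48, Mfap2 at 1.61, Efemp2 at 1.55, Emilin1 at 1.51 and Fbn1 at 1.13. Matricellular genes were Ccdc80 at 2.23, Igfbp7 at 1.87, Thbs2 at 1.78, Sparc at 1.68, Sparcl1 at 1.44 and Fstl1 at 1.18. Basement membrane genes with a higher effect in liver were Nid1 at 1.43, Lama5 at 1.40, Lamb2 at 0.93 and Hspg2 at 0.83. Collagen-binding proteoglycans were Bgn at 1.60 and Prelp at 0.97, latent TGF-beta binding proteins were Ltbp1 at 1.02, Ltbp4 at 0.94 and Ltbp3 at 0.76, and the calcification inhibitor Mgp stood at 3.12. Lamb3 was the 1 gene with a lower effect in liver, at -4.94, and its effects had opposite signs. Over all 15786 genes tested, 19.5% had a called difference.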

How the results depend on the processing

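No called value changed sign under the alternatives run, but uncalled estimates did for 7 genes in LSEC (Aspn, Ccdc80, Ecm1, Efemp2, Lama4, Mgp and Prelp) and for 10 differences. In liver 42 of the 46 calls held under every refit, and 33 of these also had an absolute log2 value of at least 1; the count of 42 rises stayed within 1.5 times. The liver count of falls was 2, not 4, with scaling by total reads, where Ecm1 and Vtn lost their call, and 2 with an absolute log2 value of at least 1. LSEC calls depended most on single libraries: leaving out 1 library gave 5 to 14 rises and 0 to 1 falls in place of 15 and 1, and 4 of 16 calls held under every refit and both stricter thresholds. At an adjusted p under 0.01, LSEC had 4 rises and 0 falls, and DESeq2 gave 3 falls. For the difference, 18 of 23 calls held under every refit, 16 of them with an absolute log2 value of at least 1, and the count of genes with a lower effect in liver, 1 as reported, was 4 with a normal p and 1 to 4 with a library left out. The other gene lists had 44 calls in LSEC, and 4 to 41 with a library left out. Over all LSEC genes the 853 rises became 344, 138 or 75 when NASH library 1, 2 or 3 was left out, and 793, 765 or 190 when chow library 1, 2 or 3 was left out. The cause was not tested.

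Liver libraries share replicate numbers across diets, but same-numbered libraries deviated together only weakly (r = -0.01, -0.02 and 0.10), so the numbers were not taken as pairs. With the replicate block the liver counts were 42 and 4, and with the replicate block in liver 22 genes had a higher and 2 a lower effect in liver. No paired analysis was possible for LSEC because its columns carry no replicate numbers.

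With 3 libraries per group, an exact test of a single value cannot go below p = 0.1. LSEC genes at a few reads, such as Mfap5 (2 reads in its lowest library), bear large errors, and depth in LSEC was lower than in liver.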
